A study of Aspergillus nidulans with 12 samples.

Results

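The genes described here are 4 genes of fatty acid breakdown and its control in the filamentous fungus Aspergillus nidulans, taken by their gene IDs from the 7729 genes listed in each of 2 deposited comparison tables. They are foxA (AN7111), aoxA (AN6752), farA (AN7050) and farB (AN1425), and all 4 were found and tested in both tables. They are defined by these IDs alone. Mycelium of 4 strains had been taken for RNA-Seq, as 12 libraries, 3 for each strain, after growth in a liquid minimal medium that held nitrate and glucose. The question was which transcripts changed in 2 mutants of kaeA (AN6569), a gene whose product belongs to KEOPS, the complex that modifies certain tRNAs. The strain kaeA19 was compared with its kaeA+ control wt4, and the strain kaeA25 with its kaeA+ control wt5.

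All strains share proA6, a mutation that blocks proline synthesis. The study describes kaeA mutations as first found through their suppression of proline auxotrophy. A mutant and its control may thus differ in their need for proline, which was not tested here. In the labels kaeA19 and wt4 also carry pabaA9, while the number of the biA allele is biA1 for wt4 and runs from biA2 to biA4 over the kaeA19 libraries. The study's methods give biA1 for both kaeA19 and wt4, so the running biA numbers of the labels are not borne out there. They give kaeA19 a different pabaA allele from that of wt4. The strains kaeA25 and wt5 both carry adF9 and yA2, with phenA2 as a further marker. Both kaeA alleles are short deletions that keep the reading frame, so neither removes the gene, and each mutant is represented by 1 strain. Both mutants are described as growing more slowly than wild type, and effects of growth rate and of the alleles cannot be told apart.

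Fatty acids serve fungi as a carbon source after their activation to acyl-CoA. In A. nidulans they are broken down by beta-oxidation both in peroxisomes and in mitochondria. In the peroxisome an acyl-CoA oxidase carries out the first step, and a multifunctional enzyme carries out the hydration and the second oxidation. The acetyl-CoA that is released feeds the glyoxylate cycle and gluconeogenesis. The zinc cluster transcription factors FarA and FarB activate genes of these pathways when fatty acids are present, FarB mainly with short-chain fatty acids. On glucose these genes are known to be expressed at a basal level. Among the genes described, aoxA encodes an acyl-CoA oxidase, foxA encodes the peroxisomal multifunctional enzyme, and farA and farB encode the regulators. The sequences of these genes were not used here.

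None of the 4 genes had an estimate beyond a 2-fold change in either mutant, although the 95% intervals of farB reached past 2-fold in both. The acyl-CoA oxidase gene aoxA was the only one whose transcript passed an adjusted p under 0.05, being lower in kaeA25 at 0.755 of the wt5 level, and the only one on which a difference between the mutants was detected. The regulator gene farB had the largest estimates, 1.54-fold in kaeA19 and 1.49-fold in kaeA25, but neither passed the adjusted threshold. For foxA and farA the largest estimate was 1.21-fold, that of foxA in kaeA19.

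The tables list, for each gene, a mean of the normalized fragment count over the 6 libraries of a comparison. They give no value per library, so no spread over the 3 libraries of a strain can be shown, and the level of each strain was worked out from the mean and the deposited fold change. How deeply each library was sequenced is not known from them. An alignment summary of the study gives reads by library number, with some libraries far below the others. The sample labels do not tie these numbers to strains. Number ranges in the names of the deposited comparisons may do so, but this was not checked and the summary was not used here. The deposited means of all genes sum to 22310300 for kaeA19 and wt4 and to 21992800 for kaeA25 and wt5, in normalized fragments per average library. Of the listed genes 6227 have an adjusted p for kaeA19 and 5451 for kaeA25, and these are called tested. The chitin synthase gene AN2523, used to check for growing hyphae, had deposited means of 9861 and 10599 normalized fragments in the respective tables. The mycelial catalase gene AN9339, cat1 in the reference, had deposited means of 936 and 1006. The conidiation genes abaA (AN0422) and wetA (AN1937) had deposited means between 25.9 and 83.9, the spore pigment gene yA (AN6635) 214 and 221, and brlA was not analysed here. For kaeA itself the deposited fold was -0.54 ± 0.17 (SE) on the log2 scale in kaeA19, with an adjusted p of 0.00754 in the authors' table. It was 0.33 ± 0.26 in kaeA25, with an adjusted p of 0.47. The difference of kaeA19 minus kaeA25 was -0.87 ± 0.31 (normal test, adjusted p = 0.0485). These values check no label, because neither allele removes the gene.

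All 4 genes were transcribed at a middling level. In the table of kaeA19 and wt4, the deposited means were 2058 normalized fragments for aoxA, 1699 for foxA, 1040 for farA and 771 for farB. The median of the tested genes in that table was 1326, and the 4 genes lay between the percentiles 32.2 (farB) and 64.7 (aoxA) of the tested genes. In the table of kaeA25 and wt5, the deposited means were 1344 for aoxA, 1282 for foxA, 1015 for farB and 996 for farA. There the median of the tested genes was 1529, so that all 4 genes were below it, between the percentiles 33.3 (farA) and 44.6 (aoxA). The tested genes leave out those of low level, and the smallest tested mean was 148 in the kaeA19 table and 329 in this one. The percentiles of the 2 tables are thus not on the same footing. Among all 7729 listed genes in the kaeA25 table, the 4 genes stood between the ranks 3047 (aoxA) and 3668 (farA) from the highest mean. Both enzyme genes thus stood above both regulator genes in each table.

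The order of the enzyme genes was the same per kilobase of gene length, taken from the RefSeq annotation of assembly ASM1142v1. Per kilobase, the deposited mean in the kaeA19 table was 911 normalized fragments for aoxA, 541 for foxA, 292 for farA and 287 for farB. In the kaeA25 table it was 595 for aoxA, 408 for foxA, 378 for farB and 279 for farA. The regulators changed places between the tables. Whether neighbours in these orders differ beyond their spread over libraries was not tested, for want of values per library.

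Of the enzyme genes, foxA had worked-out group means of 1535 normalized fragments in wt4 and 1863 in kaeA19. Its group means were 1251 in wt5 and 1313 in kaeA25. The mutant mean was thus slightly above that of its own control in each pair. In kaeA19 the deposited log2 fold change was 0.28 ± 0.18 (SE), with a 95% interval from -0.08 to 0.64 and an adjusted p of 0.267 in the authors' table. In kaeA25 it was 0.07 ± 0.25, with an interval from -0.42 to 0.56 and an adjusted p of 0.897. As folds, these intervals run from 0.945 to 1.56 in kaeA19 and from 0.749 to 1.47 in kaeA25, so that an increase of 2-fold lies outside both. The SE of foxA was near the middle of the tested genes in kaeA19, at the percentile 53.5, and at the percentile 67.8 in kaeA25.

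For aoxA the direction was opposite in the mutants. Its worked-out group means were 1828 normalized fragments in wt4 and 2287 in kaeA19. They were 1532 in wt5 and 1157 in kaeA25. The highest and the lowest of these 4 levels were thus those of the 2 mutants, with both controls between them, although levels set across tables that were normalized separately are approximate. The log2 fold change as deposited was 0.32 ± 0.15 (SE) in kaeA19, with a 95% interval from 0.03 to 0.61, an unadjusted p of 0.0292 and an adjusted p of 0.0833 in the authors' table, which did not pass. In kaeA25 it was -0.41 ± 0.13, with an interval from -0.65 to -0.16 and an adjusted p of 0.0166 in the authors' table. This is a level of 0.755 of that in wt5, with an interval from 0.636 to 0.897. It passed the p threshold but not the study's fold threshold of 2. The SE of aoxA in kaeA25 was among the smaller ones, at the percentile 5.82 of the tested genes, and 25.9% of the tested genes had a larger absolute log2 fold change there.

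**Figure D1:**
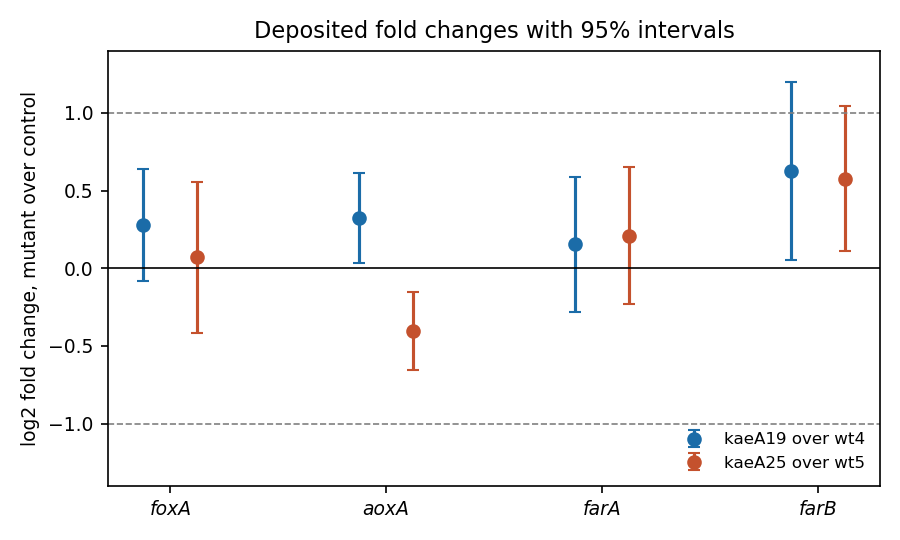
Deposited log2 fold change (vertical axis) of foxA, aoxA, farA and farB in kaeA19 over wt4 (blue) and kaeA25 over wt5 (orange). Points are the deposited estimates, bars their 95% intervals, and dashed lines mark a 2-fold change. The intervals of aoxA lie above 0 in kaeA19 (0.03 to 0.61) and below 0 in kaeA25 (-0.65 to -0.16), while only those of farB reach a 2-fold change.

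Among the regulator genes, farA had worked-out group means of 984 normalized fragments in wt4 and 1095 in kaeA19. They were 923 in wt5 and 1068 in kaeA25. These 4 levels were the closest together of any of the 4 genes. As deposited, the log2 fold change of farA was 0.15 ± 0.22 (SE) in kaeA19, with a 95% interval from -0.28 to 0.59 and an adjusted p of 0.674 in the authors' table. In kaeA25 it was 0.21 ± 0.22, with an interval from -0.23 to 0.65 and an adjusted p of 0.625. Neither passed, and a change of 2-fold, 1 on the log2 scale, lies outside both intervals.

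The other regulator gene, farB, was higher in the mutant in both pairs without passing the adjusted threshold in either. Its worked-out group means were 606 normalized fragments in wt4 and 935 in kaeA19. They were 815 in wt5 and 1214 in kaeA25. The deposited log2 fold change was 0.62 ± 0.29 (SE) in kaeA19, with a 95% interval from 0.05 to 1.20, an unadjusted p of 0.0325 and an adjusted p of 0.0912 in the authors' table. In kaeA25 it was 0.57 ± 0.24, with an interval from 0.11 to 1.04, an unadjusted p of 0.0157 and an adjusted p of 0.10. As folds, the intervals run from 1.04 to 2.29 and from 1.08 to 2.06, so a change of 2-fold lies inside both. These estimates are larger than those of most genes, since 17.9% of the tested genes had a larger absolute log2 fold change in kaeA19 and 13.7% in kaeA25. The SE of farB in kaeA19 was also larger than most, at the percentile 80.7 of the tested genes.

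**Figure D2:**
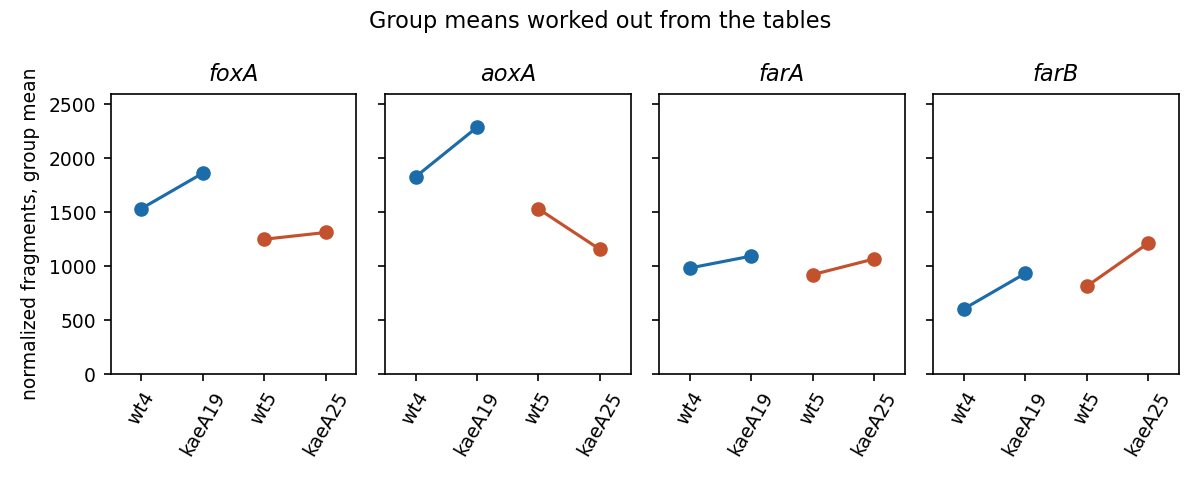
Group means in normalized fragments (vertical axis, from 0) of foxA, aoxA, farA and farB in wt4 and kaeA19 (blue) and in wt5 and kaeA25 (orange). Each point is worked out from the deposited mean and fold change of a table, with no error because values per library were not used, and a line joins a control with its mutant. The line of aoxA goes up from 1828 to 2287 in the kaeA19 pair and down from 1532 to 1157 in the kaeA25 pair.

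A gene is said to be called where it passes both thresholds that the study set, a change of more than 2-fold with an adjusted p below 0.05. In kaeA19 0 of the 4 genes were called, beside 7.63% of all tested genes, and in kaeA25 0 of 4, beside 2.83%. With 4 genes, counts of 0 are close to these backgrounds. By adjusted p alone, 0 of 4 passed in kaeA19, against 31.1% of the tested genes, and 1 of 4 in kaeA25, against 11.6%. That gene is aoxA, and 4.84% of the tested genes passed in the same direction, lower in kaeA25. At an unadjusted p under 0.05, 2 of 4 passed in each mutant, aoxA and farB, against 38.8% of the tested genes in kaeA19 and 23.8% in kaeA25. The columns of these tables are those of DESeq2, and no other tool could be run on them. The median log2 fold change of the 4 genes was 0.30 in kaeA19 and 0.14 in kaeA25, beside medians of -0.03 and 0.02 over all tested genes.

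The effects of the mutants were set against each other by dividing the difference of the listed log2 fold changes by its standard error (normal test), adjusted with Benjamini-Hochberg over the 5365 genes tested in both tables. The tables share no library. For aoxA the effect in kaeA19 was above that in kaeA25 by 0.73 ± 0.20 (SE) on the log2 scale, with a 95% interval from 0.35 to 1.11 and an adjusted p of 0.00497. This corresponds to a ratio of 1.66 between the folds. Of all genes tested in both, 9.99% passed this test, and 2.72% passed it with a positive fold change in kaeA19 and a negative one in kaeA25, as aoxA did. By its p, aoxA stood at place 204 of these genes. The call depends on the precision of the deposited errors, since with errors 1.5 times as large the adjusted p was 0.335. Strain background and comparison cannot be told apart in this difference, because each mutant has its own control with its own markers.

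For the other 3 genes no difference between the mutants was detected. The difference of kaeA19 minus kaeA25 was 0.21 ± 0.31 (SE) for foxA (normal test, adjusted p = 0.796), with a 95% interval from -0.40 to 0.82. It was -0.06 ± 0.32 for farA (adjusted p = 0.961), with an interval from -0.68 to 0.56. It was 0.05 ± 0.38 for farB (adjusted p = 0.972), with an interval from -0.69 to 0.79. The intervals of foxA and farB hold a difference as large as the 0.73 of aoxA, and that of farA does not. The point estimates of farB in both mutants, 0.62 and 0.57, were the closest pair among the 4 genes.

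Of the 4 genes, 3 had positive fold changes in both mutants and 1 had opposite signs. Over the 5365 genes tested in both, 31.5% were positive in both and 35.4% had opposite signs. The deposited means also differed between the tables, for aoxA more than for the others. These means pool mutant and control libraries, so the opposite fold changes of aoxA enter this comparison for aoxA. Its deposited mean was 1.53 times as high in the kaeA19 table as in the kaeA25 table, beside 1.32 for foxA, 1.04 for farA and 0.759 for farB. Over the genes tested in both, this ratio had a median of 1.03 and quartiles of 0.915 and 1.16. Between the controls alone, the ratio of wt4 to wt5 was 1.19 for aoxA, 1.23 for foxA, 1.07 for farA and 0.744 for farB. Between the mutants, the ratio of kaeA19 to kaeA25 was 1.98 for aoxA. These ratios are descriptions across tables that were normalized separately and were not tested.

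**Figure D3:**
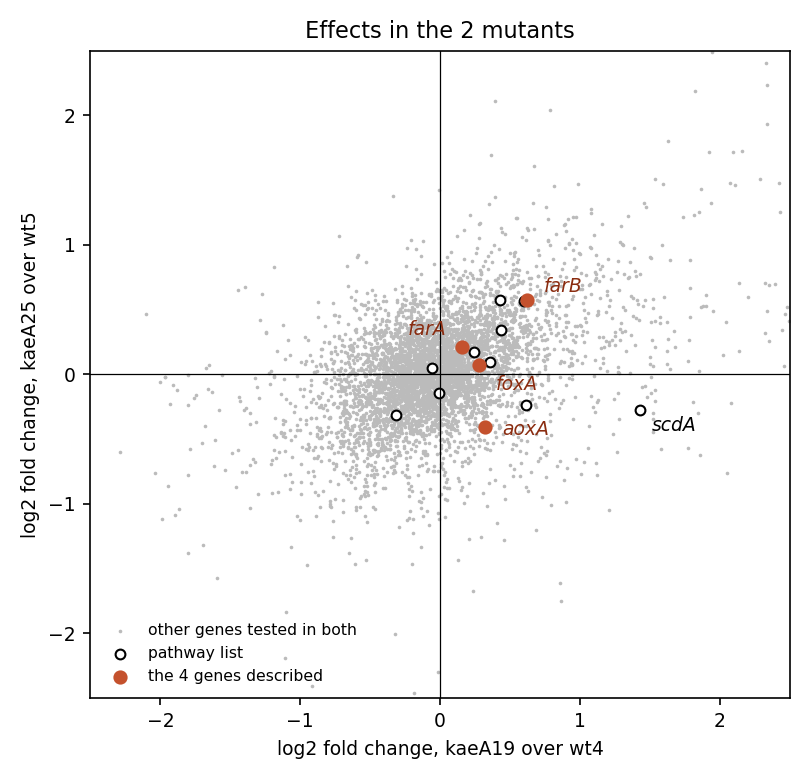
Deposited log2 fold change in kaeA19 over wt4 (horizontal axis) and in kaeA25 over wt5 (vertical axis) of the genes tested in both tables, with 40 genes beyond 2.5 in either direction not drawn. Filled orange points are foxA, aoxA, farA and farB, and open circles are genes of the pathway list. The gene aoxA lies at the lower right, at 0.32 and -0.41, as does scdA at 1.43 and -0.28, while farB lies at the upper right, at 0.62 and 0.57.

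The genes with the most similar pair of fold changes were found by the distance between the pairs, over the 2 comparisons and the other 5364 genes tested in both. Nearest to foxA were AN1004, AN4980 and AN0766, at distances up to 0.0145 on the log2 scale. Nearest to farA were AN4447, AN5655 and AN3821, at distances up to 0.00988. Such pairs are common, with 126 genes within 0.1 of foxA and 172 within 0.1 of farA. The pairs of aoxA and farB were rarer, with 23 and 24 genes within 0.1. Nearest to aoxA were AN8056, AN11032 and AN3547, at distances up to 0.0254. Nearest to farB were AN0864, AN5634 and AN7457, at distances up to 0.0427. The gene AN5634 is also in the pathway list described next.

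A list of 14 further genes of fatty acid and acetyl-CoA use was compared, comprising the mitochondrial breakdown steps, the carnitine shuttle, the glyoxylate cycle with its regulator, and the peroxisome. Of these, 3 were set aside because the reference names them otherwise, and 11 were kept. Symbols were matched exactly and synonyms were not looked up, so another name does not show that these 3 are other genes. Genes without a name in the sources used are given by ID only. In kaeA19, 1 of the 11 tested genes was called higher and 0 lower at both thresholds, near the 7.63% of all tested genes. By adjusted p alone 6 of 11 were higher and 0 lower, while 15.6% of all tested genes were higher by this rule. The median log2 fold change of the list was 0.43, beside -0.03 over all tested genes. The list was made with results of these data known, so its direction is no independent support.

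The gene called was scdA (AN0824), which encodes a mitochondrial acyl-CoA dehydrogenase of short-chain fatty acid breakdown. Its worked-out group means were 449 normalized fragments in wt4 and 1206 in kaeA19, and 1804 in wt5 and 1488 in kaeA25. Its level in wt4 was thus the lowest of the 4 strains. Its deposited log2 fold change was 1.43 ± 0.16 (SE) in kaeA19, with an adjusted p of 2.74e-17 in the authors' table, and -0.28 ± 0.23 in kaeA25, with an adjusted p of 0.514. The difference of the effects was 1.70 ± 0.28 (normal test, adjusted p = 3.48e-07), in the same direction as for aoxA. Like aoxA, scdA had a positive fold change in kaeA19 and a negative one in kaeA25, although the negative one of scdA did not pass. Opposite signs are common, at 35.4% of the genes tested in both.

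The gene echA (AN5916), for a mitochondrial enoyl-CoA hydratase, had the same pair of signs. Its worked-out group means were 788 normalized fragments in wt4, 1206 in kaeA19, 1915 in wt5 and 1628 in kaeA25. The deposited log2 fold change of echA was 0.61 ± 0.13 (SE) in kaeA19, with an adjusted p of 3.27e-05 in the authors' table. In kaeA25 it was -0.23 ± 0.30, with an adjusted p of 0.692. The difference of 0.85 ± 0.32 between the mutants did not pass (normal test, adjusted p = 0.0761).

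The other genes of the list that passed the adjusted p in kaeA19 were facB (AN0689), the regulator of acetate use, together with AN6653, AN1059 and AN2281. In the kaeA19 table, facB had a deposited log2 fold change of 0.44 ± 0.11 (SE) with an adjusted p of 3.46e-04, and AN6653 had 0.91 ± 0.22 with an adjusted p of 2.18e-04. The values were 0.43 ± 0.10 for AN1059 and 0.36 ± 0.09 for AN2281. The 5 genes that did not pass ranged from -0.32 to 0.60.

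In kaeA25, 0 of the 10 tested genes of the list were called at both thresholds, beside 2.83% of all tested genes. By the adjusted p alone 1 of 10 passed, near the 11.6% of all tested genes, and the same number passed an unadjusted p under 0.05. It was AN1059, at 0.57 ± 0.17 in the deposited table with an adjusted p of 0.0113. The other 9 ranged from -0.31 to 0.57, and the median was 0.07. No p is given for AN6653 in that table, where it was listed at 1.00 ± 0.44. Of the 10 genes of the list tested in both tables, 1 differed between the mutants, which was scdA, near the 9.99% of all genes tested in both. The 3 genes set aside would change these counts. With them 8 of 14 were higher by adjusted p in kaeA19 and 2 of 13 in kaeA25, the second being AN0880 at 0.68 ± 0.15 (SE, adjusted p of 2.47e-04 in the authors' table). With them 2 of 13 differed between the mutants. The gene added there was AN5918, with deposited log2 fold changes of 0.88 ± 0.24 in kaeA19 and -0.20 ± 0.25 in kaeA25 and a difference of 1.08 ± 0.35 (normal test, adjusted p = 0.0276).

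**Figure D4:**
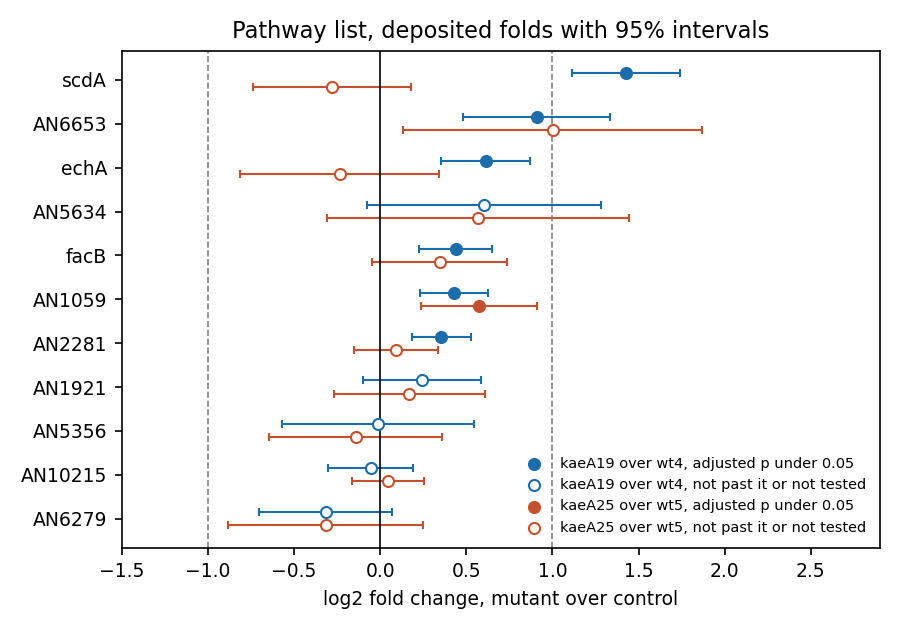
Deposited log2 fold changes (horizontal axis) of the 11 genes of the pathway list in kaeA19 over wt4 (blue) and kaeA25 over wt5 (orange), with 95% intervals as bars and dashed lines at a 2-fold change. Filled points passed an adjusted p under 0.05 and open points did not or were not tested. In kaeA19 6 points are filled, all above 0 with scdA the farthest at 1.43, and in kaeA25 1 is filled.

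In the reference assembly none of the 4 genes overlaps its direct neighbours, the smallest gap being 174 bases next to foxA. Of the 8 neighbouring genes 5 are among those analysed here. The neighbour AN7051, before farA, was listed at 0.90 ± 0.21 (SE) on the log2 scale in kaeA19 with an adjusted p of 1.64e-04, and AN7049, on the other side of farA, had -0.57 ± 0.15 in kaeA25 with an adjusted p of 0.00333. The values of farA in these comparisons, 0.15 and 0.21, passed neither threshold. The neighbour AN6753 of aoxA, at -0.30 ± 0.29 in kaeA19 and 0.05 ± 0.33 in kaeA25, did not pass, nor did the neighbours AN1424 and AN1426 of farB where they were tested.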

How the data were processed

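RNA of 3 cultures per strain, labelled as biological replicates, was depleted of ribosomal RNA and read from both ends. The study's methods state that TopHat 2 and Bowtie2 placed the reads on the AspGD sequence of strain FGSC A4, that correctly oriented pairs were kept, and that fragments were counted per gene with ShortRead. Use of the strand in counting is not stated there. The methods and the submitters' processing notes name edgeR, while the column names are those of DESeq2.

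Per the file headers, each deposited table holds a mean signal (fragment counts scaled per library and averaged over 6 libraries), a log2 fold change of mutant over control, its standard error, a score (fold change over standard error), a p-value, and this p-value after adjustment. These are comparisons the authors made, and they were used because the deposited tables analysed here hold no value per library. Recomputed scores and p-values, and a Benjamini-Hochberg adjustment over the genes tested, equalled the deposited ones. The largest standard error was 0.51 and 0.45 in the respective tables, so the deposited folds may be shrunken toward 0. This is not stated in the sources used here. Worked-out group means, intervals and the test of the difference between the mutants are then approximate.

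The group means follow from the deposited mean and fold. Intervals are the estimate with 95% normal limits. The difference of the mutants was tested with a normal test on the 5365 genes tested in both, and the code was tested on simulated data. Genes were named by rule: the 4 genes, pathway genes called or different between the mutants (others past the adjusted p were added after their values were seen), the 3 nearest genes by fold changes, and markers. The genes and lists were chosen with earlier results of these data known. Of the listed genes 94.9% matched the RefSeq table of ASM1142v1, which was used for names, lengths and neighbours only. A planned list by product names could not be made, because that table holds none, and the planned search of promoters and proteins was not run. One further gene list is not reported here. All steps ran in Python 3.11.15, with scipy 1.17.1 for the tests, pandas 2.3.3 and numpy 2.4.6 for the tables, and matplotlib 3.10.9 for the plots.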

Additional observations from a re-analysis of the deposited data

Results flagged for a closer look

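The effects of the mutants differed on aoxA (AN6752), where kaeA19 stood above kaeA25 by 0.73 ± 0.20 (SE) on the log2 scale (normal test on the deposited estimates, adjusted p = 0.00497). The effects also differed on scdA (AN0824) of the pathway list, by 1.70 ± 0.28 (adjusted p = 3.48e-07). Both were singled out because the difference itself passed its test. The worked-out level of scdA was 449 normalized fragments in wt4 and 1804 in wt5, so the controls also stood apart, in tables that were normalized separately. The part of strain background in these differences was not tested.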

How the results depend on the processing

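Of 47 alternatives, 38 kept the side of the threshold or the count. Of the 47, 24 concerned single genes, and 0 reversed a direction, which only setting the median of the tested genes to 0 could do. Many others could not have moved a result. Larger errors or a Holm adjustment cannot bring a gene past the threshold, and a new adjustment leaves its fold unchanged. The tally thus does not measure how firm the results are. With adjusted p alone in place of both thresholds, 1 of the 4 genes was counted in kaeA25 (aoxA), and in the pathway list 6 genes were counted in kaeA19 in place of 1 and 1 in kaeA25 in place of 0. A fold threshold of 1.5 gave 3 pathway genes in kaeA19. The count of 1 gene that differs between the mutants, aoxA (normal test across all genes), went to 0 with standard errors 1.5 times as large (adjusted p = 0.335), to 0 where a difference over 1 on the log2 scale was also asked, and to 0 with a Holm adjustment, chosen after seeing the data (adjusted p = 0.976). It stayed at 1 with the median of the tested genes set to 0 (adjusted p = 0.00239) and with adjustment over every gene with a p-value (0.00532). Keeping the 3 pathway genes with other reference names, also chosen after seeing the data, changed neither count of called genes, but by adjusted p alone took kaeA19 from 6 to 8 and kaeA25 from 1 to 2, and the genes that differ between the mutants from 1 to 2. No paired analysis was possible because the deposited tables analysed here give no value per library, and for the same reason no replicate could be left out. Depth per library was not used here.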
